A study of Komagataella phaffii with 15 samples.

Results

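The interaction of strain and growth rate was measured in *K. phaffii* by RNA-Seq, on 12 of the 15 libraries of the series. For each gene it is the difference between the slow (S3) and the fast (S1) sample in the wild type, minus the same difference in the *flo8Δ* strain, on the scale of log2(normalized count + 1). A positive value means that the gene went further up, or less far down, on slowing in the wild type than in *flo8Δ*, and a negative value means the reverse. The 12 libraries were chosen by their labels and not by any measured value. Both strains are CBS7435, one wild-type in genotype and one delta-flo8, and both were grown in glucose-limited chemostat medium. S1 was taken at a growth rate of 0.1 per h and S3 after the switch to 0.05 per h, with 3 libraries of each strain at each rate. In *flo8Δ* the promoter next to *FLO8* and the start of its reading frame are deleted. No strain with *FLO8* put back was sequenced, so what sets the strains apart beside the deletion cannot be told apart from it. S3 always followed S1, so growth rate and time in the chemostat cannot be told apart either, and the study counts the 3 libraries of a sample as biological replicates without saying which chemostat run each one came from. Where S1 and S3 libraries come from the same runs, the p-values, which treat all 12 as independent, measure the spread between libraries only.

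Flocculins are cell wall proteins that let yeast cells stick to each other and to surfaces, and in *S. cerevisiae* the transcription factor Flo8 switches several of their genes on. Flo11 is the *S. cerevisiae* flocculin that filamentous growth depends on, and *K. phaffii* forms pseudohyphae, chains of elongated cells, during slow growth in the chemostat. A strain difference at a single growth rate says whether a gene is higher with Flo8. The interaction asks something else, whether the step from fast to slow growth alters the gene by the same factor when Flo8 is missing.

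Between 4163342 and 10843287 reads were recovered per library from the deposited values, with a median of 9424387. The lowest depths were those of *flo8Δ* S1 replicate 2 and wild-type S1 replicate 3. *FLO8* itself (PP7435_Chr4-0252) was at 32.8 to 39.2 TPM (read counts scaled by transcript length and library size) in the wild type and at 24.1 to 34.8 TPM in *flo8Δ*, and since the deletion leaves most of the transcript its level does not check the strain labels. Wild-type S1 replicate 3 lay furthest from the other libraries of its sample (root mean square 0.313 on the log2 scale), followed by wild-type S1 replicate 2 (0.261), against 0.094 to 0.167 for the other 10. These are bulk cultures, in which fewer cells of a kind and less RNA per cell cannot be told apart.

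Of 5315 genes tested, 19 (0.357%) were called higher in the interaction and 10 (0.188%) lower, 29 (0.546%) in all. A gene was called at an adjusted p under 0.05 from limma and a log2 difference beyond 1 in either direction, so that its S3 to S1 ratio differed more than 2-fold between the strains. At the top stood *FLO11*, the putative homolog of the *S. cerevisiae* adhesin, with 4.05 (standard error, SE, 0.73, limma adjusted p = 0.0094). The lowest values belonged to PP7435_Chr3-1237, a gene of the *FLO* family, with -2.63 (SE 0.34, limma adjusted p = 0.0011), and to PP7435_Chr3-1236, the gene with the next lower locus number, with -2.42 (SE 0.32, limma adjusted p = 0.0011). *FLO5-1* came next. The remaining 25 called genes have no name in the sources used here and are given by locus tag.

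Smaller differences were more common. An adjusted p under 0.05 at any size was reached by 281 genes (5.29%), 159 positive (2.99%) and 122 negative (2.3%), with a median size of 0.53 on the log2 scale. Among them 133 lay between 0.5 and 1 and 119 under 0.5. An unadjusted p under 0.05 was reached by 25.8% of the genes. A further 44 genes lay beyond 1 without an adjusted p under 0.05. In each of the 29 called genes, all 9 ratios of a wild-type S3 library to a wild-type S1 library lay on one side of all 9 ratios in *flo8Δ*. Over all genes tested this held for 6.9% with the wild-type ratios above and for 7.66% with them below.

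**Figure D1:**
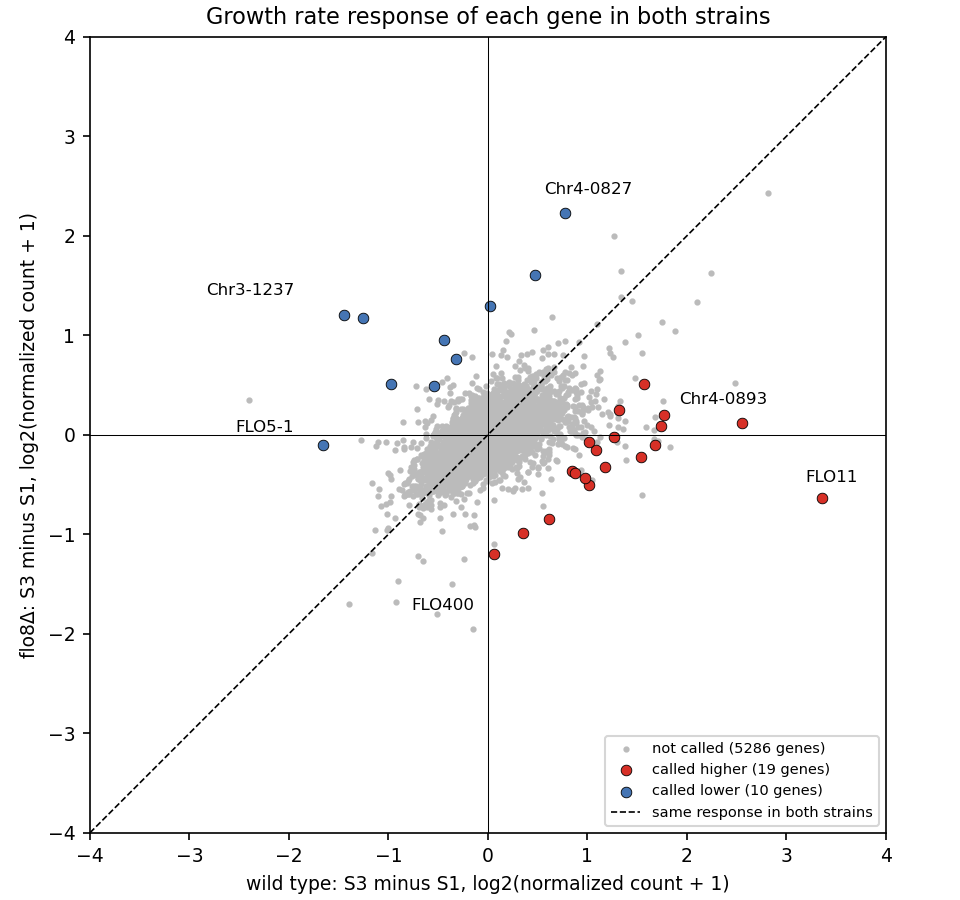
Growth rate response, S3 minus S1 on the scale of log2(normalized count + 1), of 5315 genes in the wild type (x axis) and in flo8Δ (y axis). Red points are the 19 genes called higher in the interaction and blue points the 10 called lower, grey points were not called, and on the dashed line both responses are equal. *FLO11* lies furthest to the right at 3.36 in the wild type and -0.64 in flo8Δ.

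In the 19 genes called higher the wild-type response was the larger one in absolute size for 16. The strains responded in opposite directions in 14 of the 19. The wild-type response, fitted on its own, was called for 13 of the 19, all upward, where 1.11% of genes were called higher in that comparison. In *flo8Δ* the response was called for 1 of them, downward (0.226% of genes), for 17 it was not called, and *FLO11* had too few reads in *flo8Δ* to be tested. Many of the 17 had an adjusted p under 0.05 from limma in *flo8Δ* (down to 4.1e-05 for PP7435_Chr3-0352) and were under the fold threshold only. The median response of the 19 was 1.18 in the wild type, with a range of 0.06 to 3.36, and -0.22 in *flo8Δ*, with a range of -1.2 to 0.51. These responses are the terms of the interaction and are given beside it as a description.

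For the 10 genes called lower the *flo8Δ* side was the larger part in 5 genes and the wild-type side in the other 5. The *flo8Δ* response was called for 5 of them, all upward (0.32% of genes in that comparison), and the wild-type response for 3, all downward (0.32% of genes). Median responses were -0.49 in the wild type (-1.66 to 0.77) and 1.06 in *flo8Δ* (-0.1 to 2.23). Only *FLO5-1* among the 10 had a negative response in *flo8Δ*.

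The *FLO* family of *K. phaffii* has 13 members, of which 12 passed the filter on low counts, and 1 was called higher and 2 lower (0.357% and 0.188% of all genes). At an adjusted p under 0.05 from limma and any size, 2 members were positive and 2 negative. The median over the 12 was 0.28, beside 0.01 over all genes tested.

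*FLO11* (PP7435_Chr2-0267) was at 8.81, 8.57 and 2.24 TPM in the 3 wild-type libraries at S1, and at 38.0, 59.3 and 79.0 TPM at S3. Every S3 library was above every S1 library, and replicate 3 was the lowest at S1 and the highest at S3. In *flo8Δ* the gene was close to the limit of detection, with 0.363, 0.707 and 0.262 TPM at S1 and 0.244, 0.448 and 0.172 TPM at S3, which rest on 5 to 13 reads a library. The *flo8Δ* libraries of both growth rates overlapped. *FLO11* thus rose by 3.36 in the wild type (SE 0.53, limma adjusted p = 0.0032) and differed by -0.64 in *flo8Δ*, a value with no test. The interaction amounts to a 16.6-fold larger S3 to S1 ratio in the wild type, and it was called in each of the 12 fits without 1 library, between 3.37 without wild-type S1 replicate 3 and 4.41 without wild-type S1 replicate 2 or without *flo8Δ* S3 replicate 2. With edgeR's quasi-likelihood test on the recovered reads the value was 3.54 and was not significant (adjusted p = 0.11), and with DESeq2 it was 3.8 and significant (adjusted p = 0.002). Of 13 alternatives other than a library left out, 8 called *FLO11*, and none of those that used edgeR did.

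*FLO5-1* (PP7435_Chr1-1389) encodes a flocculin with a PA14/GLEYA carbohydrate binding domain and went the other way. Its levels were 1893, 2167 and 2409 TPM in the wild type at S1 and 628, 657 and 714 TPM at S3. The *flo8Δ* libraries held 47.7, 48.2 and 46.5 TPM at S1 and 50.7, 44.1 and 48.9 TPM at S3, a narrow band far under the wild type. *FLO5-1* fell by 1.66 in the wild type (SE 0.11, limma adjusted p = 0.00034), while the *flo8Δ* response was -0.10 (SE 0.06, limma adjusted p = 0.23). The interaction of -1.55 (SE 0.11, limma adjusted p = 7.4e-06) reduced the strain difference from 5.40 at S1 to 3.86 at S3, so that the gene remained higher in the wild type at both growth rates.

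PP7435_Chr3-1237, which encodes a protein of low similarity to flocculins with a flocculin_t3 repeat, moved in opposite directions in the strains. It fell in the wild type from 27.9, 34.2 and 46.0 TPM to 8.49, 15.3 and 15.3 TPM, and rose in *flo8Δ* from 3.80, 3.29 and 2.32 TPM to 7.22, 6.49 and 9.97 TPM. The S3 libraries of the strains overlapped. Responses of -1.45 and 1.2 were both called (adjusted p = 0.0040 and 0.0016 from limma), and a strain difference of 3.38 at S1 was 0.75 at S3, where it was not called. PP7435_Chr3-1236 showed the same order at a lower level, with 13.5, 13.2 and 21.1 TPM in the wild type at S1 and 6.32, 6.11 and 6.60 TPM at S3, and with 2.20, 2.72 and 1.85 TPM in *flo8Δ* at S1 and 7.57, 3.96 and 5.73 TPM at S3. Both of its responses were called as well, and its strain difference of 2.66 at S1 was 0.25 at S3. The sources used here give no name or function for PP7435_Chr3-1236. The kallisto files of single libraries, made with a stranded setting, hold 29.6% of the reads of PP7435_Chr3-1237 and 42.0% of those of PP7435_Chr3-1236, against a median of 2.84% over all genes. When those counts were taken off, edgeR gave -2.15 (adjusted p = 0.24) and -2.06 (adjusted p = 0.28), and whether reads of a neighbouring or opposite transcript take part was not tested.

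*FLO400* (PP7435_Chr4-0865), a flocculin gene with a high level in the wild type, was not called. It measured 3312, 2669 and 4312 TPM in the wild type at S1 and 1349, 1815 and 2166 TPM at S3, and 349.6, 265 and 403 TPM in *flo8Δ* at S1 and 107, 102 and 131 TPM at S3. Within each strain all S3 libraries were under all S1 libraries. The *flo8Δ* response of -1.68 was called (adjusted p = 5e-06 from limma), the wild-type response of -0.92 was not past the fold threshold (adjusted p = 0.0097 from limma), and the difference between them was 0.77 (SE 0.25, limma adjusted p = 0.084). With 1 library left out it ranged from 0.62 to 0.94, and its adjusted p fell under 0.05 in 1 of 12 such fits, without wild-type S1 replicate 3 (0.030).

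*FLO300* (PP7435_Chr4-1020), another PA14 domain gene, rose on slowing in both strains, from 9.84, 6.17 and 8.0 TPM to 11.8, 42.8 and 72.2 TPM in the wild type and from 9.44, 10.2 and 8.34 TPM to 27.9, 26.9 and 21.9 TPM in *flo8Δ*. Wild-type S3 replicate 1 stood far under replicates 2 and 3. Responses were 2.10 and 1.33, and the interaction of 0.77 was smaller than its spread allows to call (SE 0.62, limma adjusted p = 0.47). Without wild-type S3 replicate 1 it was 1.5 and called (adjusted p = 0.022 from limma), so that 1 library decides this gene. *FLO100* (PP7435_Chr1-1587) showed the same split between wild-type S3 libraries, with 0.0547, 6.12 and 9.85 TPM, and was under the filter. In the *flo8Δ* S3 libraries *FLO100* had 0 reads, which allows up to 0.157, 0.155 and 0.155 TPM at 3 reads a library, a limit that covers counting error only.

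*BSC1* (PP7435_Chr1-1549), which carries a Flo11-type domain, had a small positive interaction of 0.58 (SE 0.14, limma adjusted p = 0.036), under the fold threshold. Its levels were 5.04, 4.61 and 4.64 TPM in the wild type at S1, 3.84, 4.27 and 4.95 TPM at S3, and 6.16, 6.67 and 5.99 TPM in *flo8Δ* at S1 and 3.93, 4.54 and 4.26 TPM at S3. The S1 and S3 libraries overlapped in the wild type and not in *flo8Δ*. In fits without 1 library the adjusted p lay between 0.017 and 0.089 and passed 0.05 in 4 of 12. The other 6 members, *FLO5-2*, *FLO200*, PP7435_Chr1-2104, PP7435_Chr2-0004, PP7435_Chr4-0629 and PP7435_Chr4-1013, had interactions between -0.07 and 0.46 with adjusted p from 0.12 to 0.93 (limma). *FLO5-2*, the closest relative of *FLO5-1*, was at -0.07 (SE 0.15). The stranded kallisto counts hold 91% of the reads of *FLO5-2*, 97.5% of PP7435_Chr4-1013, 68.8% of *FLO200* and 27.7% of PP7435_Chr4-0629. The median over all genes was 2.84%. With these counts taken off, edgeR gave -0.20 for *FLO5-2* (adjusted p = 0.78) and 2.97 for PP7435_Chr4-1013 (adjusted p = 0.033). It gave 0.10 for *FLO200* (adjusted p = 0.89) and 0.23 for PP7435_Chr4-0629 (adjusted p = 0.57). *FLO8* was at -0.16 (SE 0.14, limma adjusted p = 0.48), and *ACT1*, the actin gene used as a reference, at 0.25 (SE 0.09, limma adjusted p = 0.13). For *ACT1* DESeq2 gave 0.23 (adjusted p = 0.011) and edgeR with TMM scaling 0.22 (adjusted p = 0.17). All 9 wild-type ratios of *ACT1* lay above all 9 in *flo8Δ*, as in 6.9% of all genes tested.

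**Figure D2:**
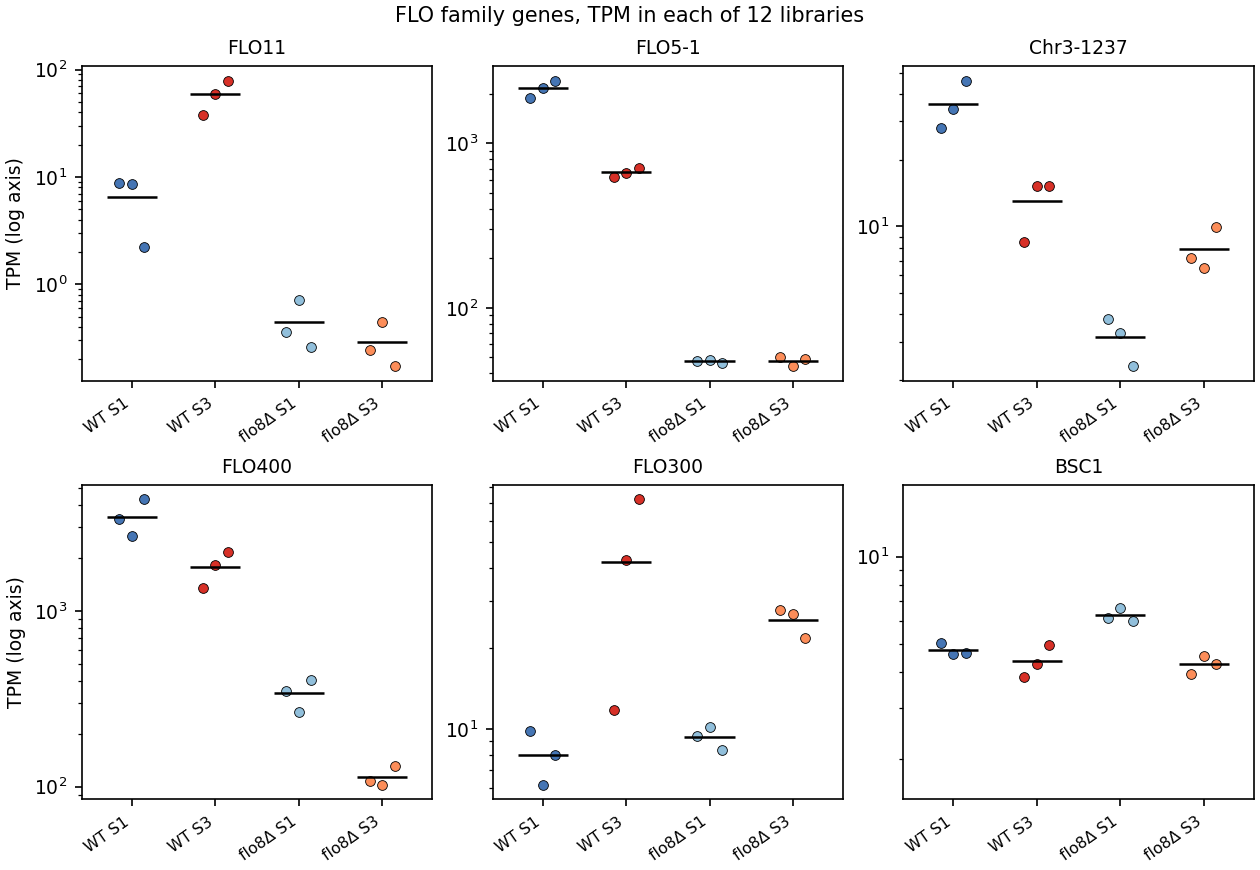
TPM (log axis, with its own range in each panel) of 6 FLO family genes in the 12 libraries; points are libraries in the order of their replicate number and lines are the means of 3. *FLO11* is higher at S3 than at S1 in the wild type alone, *FLO5-1* is lower at S3 in the wild type alone, and the strains approach each other at S3 in PP7435_Chr3-1237.

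Among the called genes without a name, PP7435_Chr4-0893 had the largest positive interaction, 2.45 (SE 0.37, limma adjusted p = 0.0041). It rose in the wild type from 227, 226 and 94.9 TPM at S1 to 873, 987 and 1074 TPM at S3, and stood at 28.1, 33.0 and 28.4 TPM and at 32.2, 34.7 and 38.1 TPM in *flo8Δ*. Like *FLO11*, this gene was already lower in *flo8Δ* at S1, by 2.41, and the strain difference was 4.86 at S3. Unlike *FLO11*, it lay well above the detection limit in every library, so the lack of a large *flo8Δ* response (0.12, adjusted p = 0.34 from limma) was measured on many reads. It was called in all 12 fits without 1 library, from 1.99 to 2.70, and by edgeR and DESeq2 on the recovered reads.

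PP7435_Chr4-0002 rose from 278, 301 and 167 TPM to 823, 803 and 784 TPM in the wild type. In *flo8Δ* it stood at 132, 125 and 113 TPM at S1 and at 154, 151 and 153 TPM at S3. The interaction was 1.58 (SE 0.25, limma adjusted p = 0.0059), from a wild-type response of 1.77 beside 0.20 in *flo8Δ*. PP7435_Chr3-0313 had 1.77 (SE 0.26, limma adjusted p = 0.0032), with 59.8, 43.1 and 31.5 TPM at S1 and 108, 125 and 140.3 TPM at S3 in the wild type and 15.9 to 20.2 TPM over all 6 *flo8Δ* libraries. PP7435_Chr3-0320 had 1.66 (SE 0.33, limma adjusted p = 0.016), with wild-type levels of 51, 59.1 and 26.8 TPM and then 119, 146 and 162 TPM, and between 11.3 and 14.9 TPM in *flo8Δ*. In each of these 3 genes every wild-type S3 library was above every wild-type S1 library. PP7435_Chr1-1550, whose locus number follows that of *BSC1*, was at 72.3, 53.9 and 31.1 TPM and then 107, 168 and 210.4 TPM in the wild type, and between 32.6 and 37.5 TPM in *flo8Δ*. Its interaction of 1.79 (SE 0.38, limma adjusted p = 0.020) was no longer called in 5 of the 12 fits without 1 library. The stranded kallisto counts hold 31.4% of the reads of PP7435_Chr1-1550, and once these were taken off edgeR gave 2.3 (adjusted p = 0.75).

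Another 7 genes combined a called rise in the wild type with a *flo8Δ* response that was not called, being under the fold threshold. PP7435_Chr4-0101 is the one whose *flo8Δ* value was most negative, with 56.1, 50.6 and 34.3 TPM at S1 and 105, 93.5 and 78.7 TPM at S3 in the wild type, and 16.0, 15.7 and 14.3 TPM and then 11.0, 12.8 and 11.6 TPM in *flo8Δ*. Its interaction was 1.53 (SE 0.25, limma adjusted p = 0.0059), made of responses of 1.02 and -0.50. PP7435_Chr4-0863 had the largest positive *flo8Δ* response of these 7, and went from 85.0, 69.7 and 67.1 TPM to 195, 215 and 234 TPM in the wild type, and from 145, 117 and 119.8 TPM to 192, 197 and 199 TPM in *flo8Δ*. Its responses of 1.57 and 0.51 differed by 1.07 (SE 0.14, limma adjusted p = 0.0011), and its strain difference went from -0.88 at S1 to 0.19 at S3. The other 5 had interactions from 1.08 to 1.51: PP7435_Chr4-1158, PP7435_Chr3-0344, PP7435_Chr1-0468, PP7435_Chr4-0902 and PP7435_Chr3-0881. Each of the 5 was called in at most 4 of the 12 fits without 1 library. PP7435_Chr3-0881 had the largest share of reads in the stranded kallisto counts among the 29 called genes, 92.3%, and its interaction was -0.31 once these were taken off. Limma's adjusted p of the *flo8Δ* response was under 0.05 for PP7435_Chr4-0101 (0.0054), PP7435_Chr4-1158 (0.0072), PP7435_Chr3-0881 (0.027) and PP7435_Chr4-0863 (0.00033). It was 0.86 for PP7435_Chr3-0344, 0.17 for PP7435_Chr1-0468 and 0.64 for PP7435_Chr4-0902.

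In 3 of the 19 genes the *flo8Δ* side was the larger one. PP7435_Chr1-1351 was at 234, 178 and 165 TPM and then 246, 225 and 241 TPM in the wild type, and went from 607, 435 and 447 TPM to 278, 313 and 222 TPM in *flo8Δ*. The strain difference of -1.46 at S1 was thereby -0.12 at S3, and the interaction was 1.34 (SE 0.23, limma adjusted p = 0.0070). PP7435_Chr3-0352 was at 87.2, 87.2 and 58.5 TPM and then 98.4, 116 and 129.9 TPM in the wild type, and at 109, 84.0 and 86.7 TPM and then 59.0, 54.5 and 53.8 TPM in *flo8Δ*. Its strain difference changed sign, from -0.37 at S1 to 1.09 at S3, with an interaction of 1.46 (SE 0.23, limma adjusted p = 0.0043). PP7435_Chr1-0046 was the only one of the 19 with a called *flo8Δ* response, -1.2, beside 0.06 in the wild type, and its interaction of 1.27 (SE 0.33, limma adjusted p = 0.045) was called in 1 of the 12 fits without 1 library.

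The 3 genes not yet named had responses of both signs that were each under the fold threshold. PP7435_Chr4-0344 combined 0.98 with -0.43 (interaction 1.42), PP7435_Chr4-1009 combined 0.88 with -0.38 (1.27) and PP7435_Chr4-0130 combined 0.84 with -0.36 (1.2). PP7435_Chr4-0130 differed from the others in being lower in the wild type than in *flo8Δ* at both growth rates, by 1.77 at S1 and 0.57 at S3 on the log2 scale, with 251, 142 and 226 TPM against 720.4, 638 and 579 TPM at S1.

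**Figure D3:**
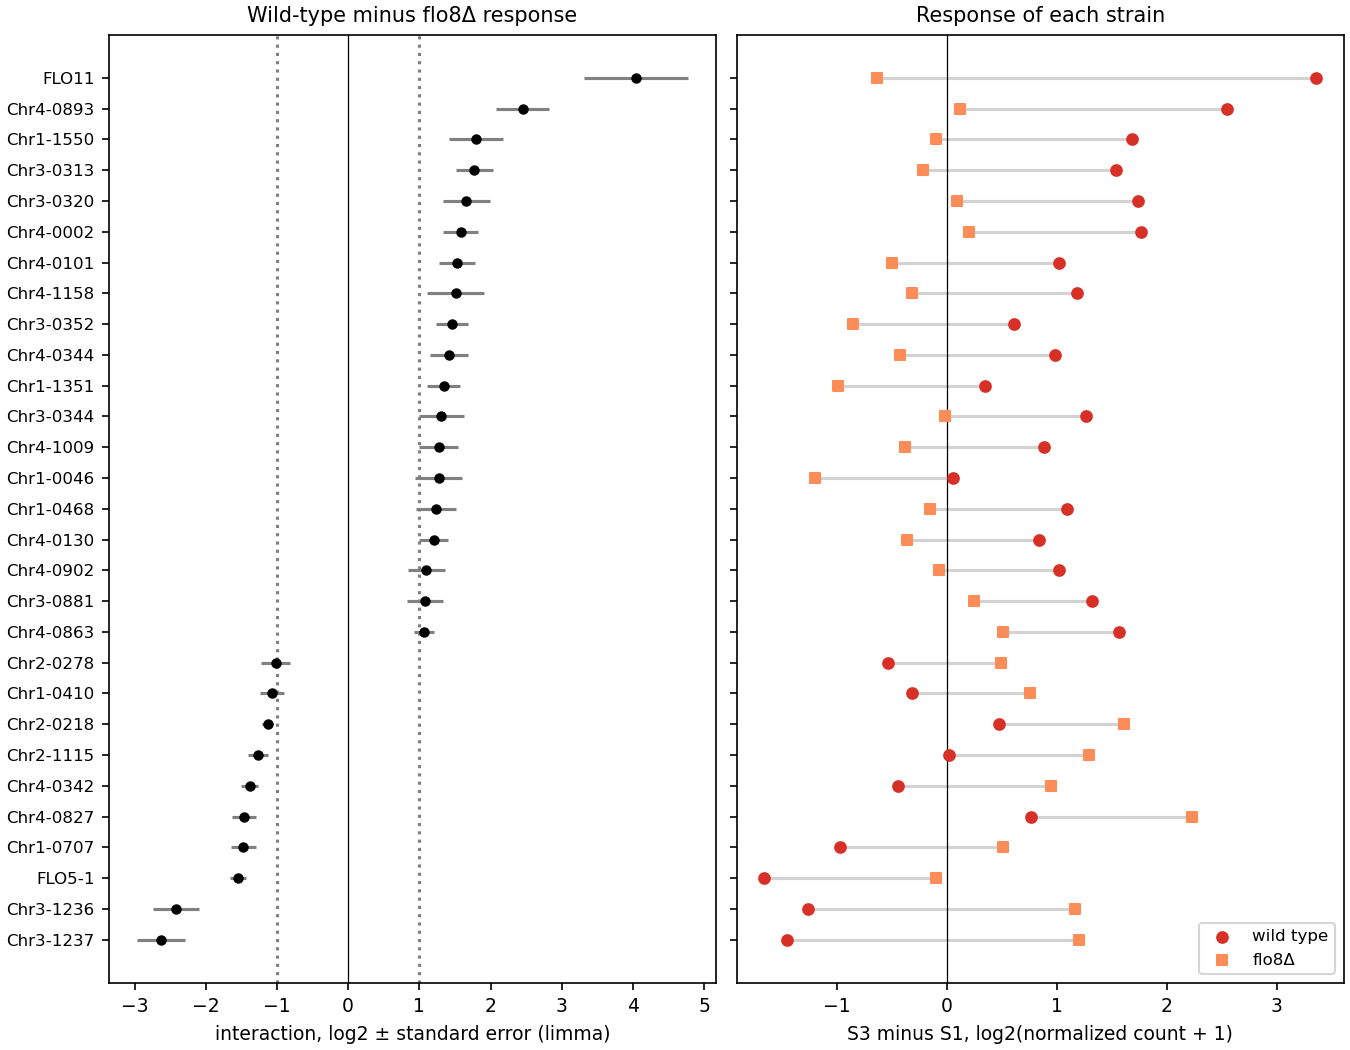
Left, the interaction of the 29 called genes with its standard error from limma, and dotted lines at the threshold of 1 in either direction. Right, the S3 minus S1 response of each strain that the interaction compares, on the scale of log2(normalized count + 1). Values range from 4.05 for *FLO11* to -2.63 for PP7435_Chr3-1237, and in the lower genes the flo8Δ square lies to the right of the wild-type circle.

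The 7 genes called lower beside *FLO5-1*, PP7435_Chr3-1237 and PP7435_Chr3-1236 were all higher in the wild type at S1. On the log2 scale *flo8Δ* came closer to the wild type at S3 without passing it in 4 of the 7. In TPM, PP7435_Chr2-0218 and PP7435_Chr4-0827 gained more in the wild type than in *flo8Δ*. PP7435_Chr2-0218 rose in *flo8Δ* from 127, 121 and 123 TPM to 399.6, 376 and 462 TPM, while the wild type held 1188, 1148 and 1352 TPM at S1 and 1624, 1666 and 1723 TPM at S3. The *flo8Δ* response of 1.61 was called and the wild-type response of 0.47 was under the fold threshold, and they differed by -1.13 with the smallest standard error of the 29 (0.08, limma adjusted p = 7.4e-06). PP7435_Chr2-1115 rose in *flo8Δ* from 86.4, 84.0 and 81.2 TPM to 226, 192 and 252 TPM. Its wild-type libraries were at 506, 458 and 692 TPM and then 564, 533 and 525 TPM, without a shift beyond their spread (0.02), and the interaction was -1.26 (SE 0.14, limma adjusted p = 0.00054). PP7435_Chr4-0827 had the largest *flo8Δ* response of the 29, 2.23, from 12.1, 13.3 and 13.6 TPM to 73.0, 58.6 and 68.4 TPM, beside 0.77 in the wild type, from 116, 115 and 154 TPM to 175, 217 and 251 TPM. Its interaction was -1.46 (SE 0.17, limma adjusted p = 0.00054).

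PP7435_Chr4-0342 was the most abundant called gene, with 7978, 8708 and 10971 TPM at S1 and 6354, 6633 and 6887 TPM at S3 in the wild type. In *flo8Δ* it was at 1145, 1068 and 1056 TPM at S1 and at 2200.0, 2164 and 2504 TPM at S3. Responses of -0.44 and 0.95, each under the fold threshold, gave an interaction of -1.38 (SE 0.12, limma adjusted p = 5.8e-05). PP7435_Chr1-0707 was the only one of the 10 whose strain difference was as large at S3 as at S1 and of the opposite sign, 0.71 and then -0.76. It measured 28.9, 23.8 and 33.6 TPM and then 14.4, 15.6 and 12.6 TPM in the wild type, against 19.1, 14.1 and 16.0 TPM and then 24.3, 26.2 and 24.9 TPM in *flo8Δ*, and at S3 the libraries of the strains did not overlap. The interaction of PP7435_Chr1-0707 was -1.47 (SE 0.18, limma adjusted p = 0.00090). PP7435_Chr1-0410 (-1.07, SE 0.17) and PP7435_Chr2-0278 (-1.02, SE 0.21) were nearest to the threshold, and both changed from higher to lower in the wild type than in *flo8Δ* between S1 and S3.

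**Figure D4:**
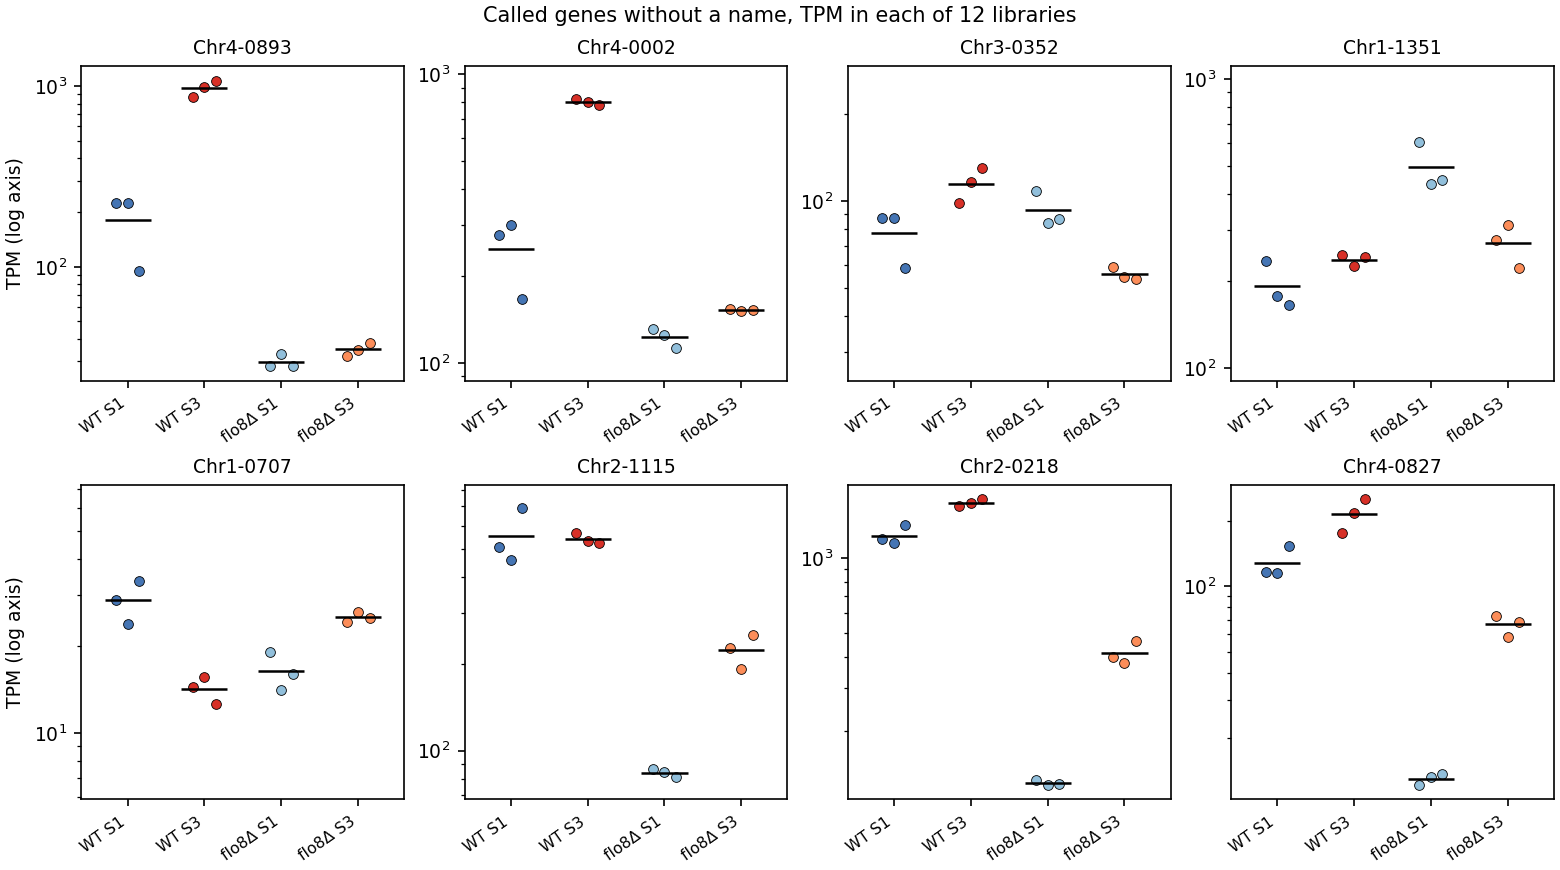
TPM (log axis, with its own range in each panel) of 8 called genes without a name in the 12 libraries; points are libraries in the order of their replicate number and lines are the means of 3. PP7435_Chr4-0893 and PP7435_Chr4-0002 are highest at S3 in the wild type, PP7435_Chr3-0352 and PP7435_Chr1-1351 are lower at S3 in flo8Δ, and the genes of the lower row except PP7435_Chr1-0707 are lowest in flo8Δ at S1.

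Read as strain differences on the log2 scale, the gap between the strains was mostly wider at S3 in the higher genes and mostly narrower in the lower ones. Of the 19 higher genes, 16 had a larger absolute strain difference at S3 than at S1. A wild-type excess was called for 8 of them at S1 (2.54% of genes) and for 15 at S3 (3.80% of genes), a wild-type deficit (0.641% and 0.414% of genes) for 2 at S1 and 0 at S3, and 4 changed sign. Of the 10 lower genes, 1 had a larger difference at S3. A wild-type excess was called for 7 at S1 and 5 at S3, and 3 changed sign. The 2 comparisons of strains share no library with each other, but both enter the interaction.

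The called genes were ordinary in length and, on the lower side, abundant. Median transcript lengths were 1191 bases for the higher and 1038 for the lower genes, beside 1176 over all genes tested. The median of the mean TPM over the 12 libraries was 85.3 for the higher and 329 for the lower genes, beside 58.8. Chromosome 4 held 9 of the 19 higher genes with 1047 of the genes tested, and chromosome 2 held 1 with 1353. The genes with the next lower or higher locus number to a called gene were mostly not called: of 49 such loci tested, 2 were, and these are PP7435_Chr3-1236 and PP7435_Chr3-1237. In those not called the median absolute interaction was 0.17, beside 0.15 over all genes tested.

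One wild-type library weighed on both lists. Wild-type S1 replicate 3 was the lowest of the 3 S1 libraries in 17 of the 19 higher genes and the highest in all 10 lower genes, where over all genes tested it was lowest in 24.5% and highest in 59.7%. Without it the median interaction was 1.2 in place of 1.42 for the higher genes and -1.33 in place of -1.42 for the lower genes, and every value kept its sign. With this library left out 17 genes were called higher and 9 lower, of which 14 and 9 were among the 29. The largest effect on the counts was that of wild-type S1 replicate 2: without it 81 genes were called higher and 21 lower, and these included all 29. The 73 genes gained that way had the same sign with all 12 libraries and a median size of 0.98. Counts dropped by more than 1.5 times without wild-type S3 replicate 2 (10 higher) and without *flo8Δ* S1 replicate 2, *flo8Δ* S3 replicate 1 or *flo8Δ* S3 replicate 3 (12 higher each). Calls of 9 higher and 8 lower genes were kept whichever library was left out.

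**Figure D5:**
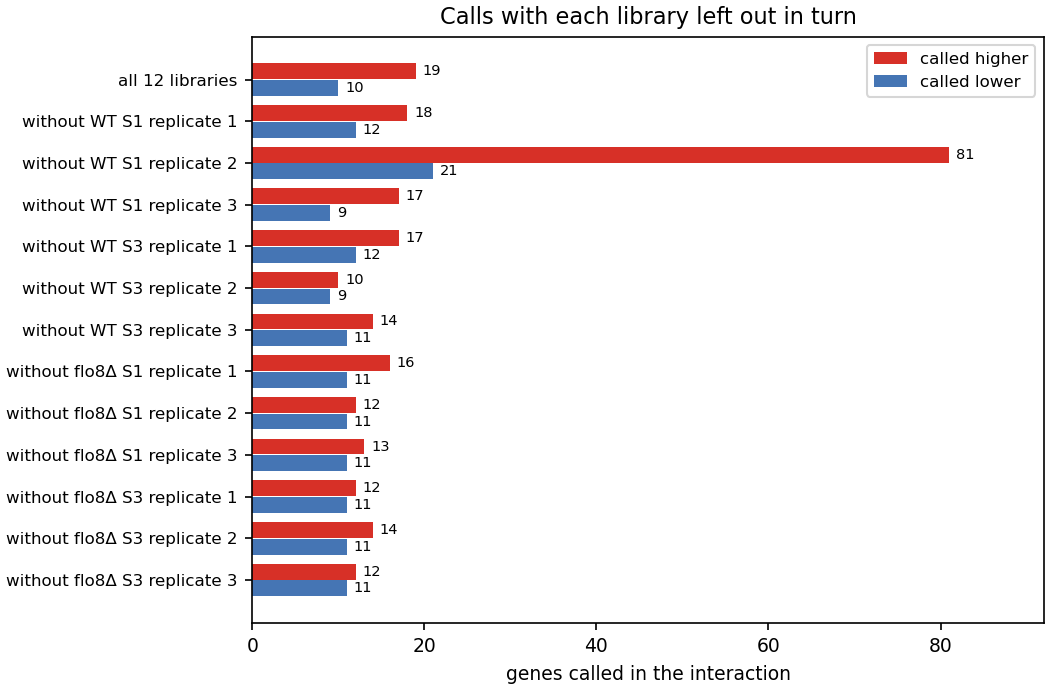
Number of genes called higher (red) and lower (blue) in the interaction with all 12 libraries and with each library left out in turn. Counts of higher genes run from 10 without wild-type S3 replicate 2 to 81 without wild-type S1 replicate 2, and counts of lower genes from 9 to 21.

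The balance of directions depended on how libraries were scaled and tested. Higher genes made up 65.5% of the calls from limma on the normalized counts, 48.3% (14 higher, 15 lower) from edgeR with TMM scaling of the recovered reads and 53.6% (15 higher, 13 lower) with RLE scaling. With the 3 wild-type S5 libraries in the edgeR fit it was 47.6% (10 higher, 11 lower), and after taking off the estimated counts 50% (19 and 19). All 10 lower genes were called with both scalings on 12 libraries, beside 14 and 15 of the 19 higher genes. DESeq2 called 24 and 15, including 17 of the 19 and all 10. Across the 4 fits on recovered reads and the 12 fits without 1 library, 7 higher and 8 lower genes were called throughout. The higher ones were PP7435_Chr4-0893, PP7435_Chr3-0313, PP7435_Chr4-0002, PP7435_Chr4-0101, PP7435_Chr3-0352, PP7435_Chr4-0344 and PP7435_Chr1-1351, and the lower ones all but PP7435_Chr1-0410 and PP7435_Chr2-0278. After taking off the estimated counts PP7435_Chr4-0002 was not called (0.92, edgeR adjusted p = 0.52), nor were PP7435_Chr3-1237 and PP7435_Chr3-1236, and with the estimated counts alone 1 of the 29 was called.

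An interaction on a log scale compares ratios, and for genes with very unequal levels in the strains it can differ in sign from a comparison of amounts. Taken as a difference in TPM, a scale chosen after seeing the data and given with no test, all 19 higher genes kept their sign and 2 of the 10 lower genes did not, where the signs differed in 24.4% of all genes tested. PP7435_Chr2-0218 gained 441 TPM in the wild type and 289 TPM in *flo8Δ*, a difference of 153 TPM with a standard error of 73.3, beside -1.13 on the log2 scale. PP7435_Chr4-0827 gained 86.2 and 53.7 TPM. *FLO400* lost far more transcript in the wild type, -1655 TPM against -226 TPM in *flo8Δ*, beside log2 responses of -0.92 and -1.68. *FLO5-1* went down on both scales, by -1490 TPM in the wild type, with 0.425 TPM in *flo8Δ*.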

How the data were processed

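Libraries were made from poly-A RNA and read from one end, and the authors used Trim Galore 0.4.2 for trimming, kallisto 0.43.1 with transcripts of CBS7435 for quantification and, after tximport, DESeq2 1.14.1. Normalized counts, here a signal per transcript, were deposited in 6 tables of 6 libraries, each normalized separately. S1 columns came from the table of both strains at S1, S3 columns from that at S3, and the contrast cancels what differs between the tables. The authors also deposited estimated counts per library, which sum to 5.06% to 6.11% of the recovered reads. Effective lengths and the step of each column gave whole reads (100% within 0.01), and from them TPM.

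Genes that reached 10 normalized counts in 3 or more of the 12 libraries were fitted with limma 3.58.1 (R 4.3.3, trended prior variance, two-sided, Benjamini-Hochberg), with group means only and a pseudocount of 1. A fold change on this scale understates the change of low genes. Of 5313 genes tested on simulated counts, the fit called all 100 changed by log2 1.5, all 100 changed by 2, and 0 unchanged genes. The simulated libraries were independent, with no strain difference and no outlying library, and only genes with many reads were changed, in wild-type S3 alone. The simulation therefore does not show how often the fit is right on the real libraries. edgeR 4.0.16 and DESeq2 1.42.0 were run on recovered reads as alternatives. Standard errors measure the spread between libraries, and the limit given for *FLO100* covers counting error only.

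The genes named are the *FLO* family, *FLO8*, *ACT1* and up to 12 of the largest called genes in each direction. This gave 12 of the genes called higher and all 10 called lower. The 7 other called genes were added after their values were seen. Members and lists were chosen with earlier results of these data known. Lists by gene symbol (mating, filamentous growth, cell wall, ribosome, stress, methanol, glucose, metal uptake, histones) could not be matched to these locus tags and have no result. *FLO5-1* and *FLO5-2* were read from PP7435_Chr1-1389 and PP7435_Chr3-1228, since the study's text gives the chromosomes of this pair the other way round and PP7435_Chr3-1389 is no locus of the tables.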

Additional observations from a re-analysis of the deposited data

Results flagged for a closer look

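The growth rate response differed between wild type and *flo8Δ* by the interaction test of limma, at an adjusted p under 0.05, for all results listed here. No explanation was tested for any of them. Above 1 on the log2 scale were *FLO11* (4.05), PP7435_Chr4-0893 (2.45), PP7435_Chr1-1550 (1.79), PP7435_Chr3-0313 (1.77), PP7435_Chr3-0320 (1.66), PP7435_Chr4-0002 (1.58), PP7435_Chr4-0101 (1.53), PP7435_Chr4-1158 (1.51), PP7435_Chr3-0352 (1.46), PP7435_Chr4-0344 (1.42), PP7435_Chr1-1351 (1.34), PP7435_Chr3-0344 (1.31), PP7435_Chr4-1009 (1.27), PP7435_Chr1-0046 (1.27), PP7435_Chr1-0468 (1.24), PP7435_Chr4-0130 (1.2), PP7435_Chr4-0902 (1.10), PP7435_Chr3-0881 (1.08) and PP7435_Chr4-0863 (1.07). Under -1 were PP7435_Chr3-1237 (-2.63), PP7435_Chr3-1236 (-2.42), *FLO5-1* (-1.55), PP7435_Chr1-0707 (-1.47), PP7435_Chr4-0827 (-1.46), PP7435_Chr4-0342 (-1.38), PP7435_Chr2-1115 (-1.26), PP7435_Chr2-0218 (-1.13), PP7435_Chr1-0410 (-1.07) and PP7435_Chr2-0278 (-1.02). *BSC1* (0.58) passed the test under the fold threshold. The sign of the interaction in PP7435_Chr2-0218 and PP7435_Chr4-0827 was the opposite in TPM.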

How the results depend on the processing

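Filters, pseudocounts, the within-strain tables, edgeR or DESeq2 on the 12 libraries, and a prior variance without trend kept both counts within 1.5 times. edgeR on 15 libraries called 10 higher. The estimated counts gave 6 lower genes (15 higher, with 1 higher and 0 lower among the 29), and reads less estimated counts gave 19 lower. With 1 library left out, counts ran from 10 to 81 higher and from 9 to 21 lower.

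Signs turned with the estimated counts for *FLO5-2* (0.02), *FLO400* (-0.46), PP7435_Chr4-0629 (-0.19), PP7435_Chr1-1550 (-0.78), PP7435_Chr3-0320 (-0.09), PP7435_Chr4-0002 (-0.13), PP7435_Chr4-0101 (-0.28), PP7435_Chr1-0468 (-0.01) and PP7435_Chr4-0827 (0.39), where 13 of 18 higher and 7 of 8 lower genes that could be tested had the sign of the full reads. They turned with reads less estimated counts for *FLO300* (-1.12) and PP7435_Chr3-0881 (-0.31), and there PP7435_Chr4-1013 was called (2.97, edgeR adjusted p = 0.033). In TPM they turned for *FLO400* (-1429), PP7435_Chr2-0004 (-1.07), PP7435_Chr4-0827 (32.6) and PP7435_Chr2-0218 (153). With 1 library left out, *FLO5-2* ranged from -0.17 to 0.01 and PP7435_Chr2-0004 from -0.13 to 0.20, both far from a call. The cause was not tested in any of these. Counting each of the 29 called genes in each fit, the call was lost in 64 of 402 cases under other alternatives. With a library left out it was lost in 75 of 348 cases.

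Of 12 correlations between same-numbered deviations from the sample mean, 0 exceeded 0.1, and those between *flo8Δ* S1 and S3 ran from -0.275 to -0.0949. Deviations from a mean of 3 libraries cannot show whether same-numbered libraries share a chemostat run. A replicate block within strain called 15 higher and 10 lower genes, and a block across strains 20 and 11. With it *FLO400* had 0.77 with limma's adjusted p of 0.045 and 0.029, under the fold threshold. Depth limits *FLO11* and *FLO100* in *flo8Δ*.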

Other observations

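The 3 libraries outside the interaction are wild-type S5, taken after the return to 0.1 per h. On the scale of log2(TPM + 1), all 13 genes of the higher list that rose in the wild type at S3 were closer at S5 to S1 than to S3. *FLO11* was 3.09 above S1 at S3 and 1.49 above it at S5, with 21.7, 15.3 and 17.4 TPM in the S5 libraries. PP7435_Chr4-0893 was 2.52 above S1 at S3 and 0.37 at S5. The 3 genes of the lower list that fell in the wild type were not closer to S1. *FLO5-1* was at -1.69 at S3 and -2.46 at S5, with 491, 546 and 222 TPM, PP7435_Chr3-1236 at -1.18 and -1.99, and PP7435_Chr3-1237 at -1.41 and -1.17. No *flo8Δ* library of this stage was analysed here, so the return has no interaction to set beside these values, and no test was made of them.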
